A study of Mus musculus with 44 samples.

Results

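The genes described here are 10 transcription factors that set and keep the identity of the intestinal epithelium: Hnf4a, Hnf4g, Cdx1, Cdx2, Klf4, Klf5, Gata4, Gata6, Tcf7l2 and Elf3. They were chosen by name, wherever the deposited count tables held them, and make up 10 of the 21126 genes listed in either table. The organoids came from the small intestine of a female Lgr5GFPDTR/+ mouse and are 1 line (line26), called wild type in the labels, with a GFP and diphtheria toxin receptor cassette knocked in at Lgr5. They were kept for 3 days in 3 µM CHIR99021, a GSK3 inhibitor that activates Wnt signalling, with 1.5 mM valproic acid, a histone deacetylase inhibitor, and then for 1 day in ENR medium (EGF, Noggin and R-spondin1). All plates of both arms share this treatment and this line. The RANKL arm then received 100 ng/mL RANKL, a cytokine of the TNF family that drives M cell differentiation, and was sampled on each day from 0 to 9, with 3 plates a day. The RANKL+CSRM617 arm received 100 ng/mL RANKL with 40 µM CSRM617, a compound that inhibits the homeodomain factor ONECUT2, and was sampled on each day from 0 to 6, with 2 plates a day. Viable single cells, gated by light scatter alone, were placed in the wells of 384-well plates and profiled by a modified CEL-Seq2 protocol, which reads the 3′ ends of transcripts and counts each molecule once by its molecular identifier (UMI).

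HNF4A and HNF4G are paralogous nuclear receptors that bind together at the enhancers of enterocyte genes, such as those for lipid absorption and the brush border. CDX1 and CDX2 are homeodomain factors that give the gut its intestinal, as against gastric, identity, and GATA4 and GATA6 are zinc finger factors that set regional identity along the small intestine, with GATA4 restraining ileal genes in the jejunum. KLF5 is a zinc finger factor of proliferating crypt cells, KLF4 a related factor of differentiated and goblet cells, TCF7L2 the nuclear partner of β-catenin through which Wnt signals reach crypt genes, and ELF3 an ETS family factor of epithelial cells.

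Cdx1 and Gata6 were left out of the promoter search. Promoters of 5 of the 10 genes were then found in the RefSeq promoter table used (Hnf4a, Klf4, Cdx2, Tcf7l2 and Elf3). They are of build GRCm38.p6 and run from 250 bases before to 50 bases after a start site. Those of Hnf4a and Tcf7l2 are shown, because Hnf4a differed between the arms on day 6 with any 1 plate left out, CSRM617 is directed at ONECUT2, and Tcf7l2 differed between the arms from day 0. Capitals mark every match, on either strand, to these short motifs: ATCAATA for ONECUT factors, AGATAA for GATA factors, GTTAAT for HNF1, CCGCCC for KLF factors, CAAAGTCCA for HNF4, CTTTGAT for TCF/LEF, CCGGAAGT for ETS factors, and TTTATTG or TTTATGG for CDX. The sequences are printed 5′ to 3′ on the strand of the gene, which is the plus strand for both genes.
Hnf4a, start site upstream, chr2:163506607-163506906: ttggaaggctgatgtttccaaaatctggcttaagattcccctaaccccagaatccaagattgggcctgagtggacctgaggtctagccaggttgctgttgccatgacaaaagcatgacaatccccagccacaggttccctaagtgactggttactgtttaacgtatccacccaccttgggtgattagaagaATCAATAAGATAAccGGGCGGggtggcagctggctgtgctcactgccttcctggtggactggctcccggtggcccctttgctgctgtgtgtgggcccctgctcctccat
Hnf4a, start site downstream, chr2:163546905-163547204: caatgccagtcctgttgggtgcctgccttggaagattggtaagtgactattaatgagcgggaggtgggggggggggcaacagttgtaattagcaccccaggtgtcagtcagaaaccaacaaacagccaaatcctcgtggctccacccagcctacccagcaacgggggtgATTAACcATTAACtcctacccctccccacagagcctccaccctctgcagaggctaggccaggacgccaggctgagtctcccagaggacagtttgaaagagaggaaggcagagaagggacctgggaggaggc
Tcf7l2, start site upstream, chr19:55741560-55741859: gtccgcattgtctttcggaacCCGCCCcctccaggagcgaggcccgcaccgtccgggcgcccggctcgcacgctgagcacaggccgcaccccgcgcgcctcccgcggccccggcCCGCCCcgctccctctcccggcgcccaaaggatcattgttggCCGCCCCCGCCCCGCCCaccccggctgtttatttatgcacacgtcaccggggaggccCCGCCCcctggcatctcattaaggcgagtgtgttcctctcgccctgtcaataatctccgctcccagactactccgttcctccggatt
Tcf7l2, start site downstream, chr19:55895071-55895370: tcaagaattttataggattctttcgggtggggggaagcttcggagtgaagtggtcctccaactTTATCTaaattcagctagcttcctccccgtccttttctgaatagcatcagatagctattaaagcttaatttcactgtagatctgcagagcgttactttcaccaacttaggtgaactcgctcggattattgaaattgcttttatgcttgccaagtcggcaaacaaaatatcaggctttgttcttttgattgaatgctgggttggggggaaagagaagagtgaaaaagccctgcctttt
The upstream Hnf4a promoter held the ONECUT motif at position -59 from the start site, a GATA motif at -52 that follows it directly, and a KLF motif on the minus strand at -44. Its downstream promoter held a pair of HNF1 motifs on the minus strand, at -81 and -74. The upstream Tcf7l2 promoter held 6 KLF motifs between -229 and -37, of which those at -88 and -83 share a base. The downstream one held no KLF motif and a GATA motif on the minus strand at -187. Of all 32851 promoters in the table, 2.05% held the ONECUT motif, 11.2% the GATA, 7.1% the HNF1 and 35.7% the KLF motif. No HNF4, CDX, TCF/LEF or ETS match fell within these 4 windows, which says only that these letters are not there.

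There were 21099 genes in the RANKL table and 9257 genes in the RANKL+CSRM617 table, and cells with 1000 or more UMIs were kept. This left 6558 cells (26 to 282 per plate, 155940 to 1640523 UMIs per plate) in the RANKL arm and 1673 cells (24 to 223 per plate, 47976 to 835772 UMIs per plate) in the other. UMIs were summed per plate and tested with edgeR's quasi-likelihood test with Benjamini-Hochberg adjustment over all genes tested, and levels are CPM, a gene's UMIs as a rate over the scaled library of a plate. In such sums, fewer cells of a type and less RNA per cell cannot be told apart. By the cell classes named further below, mitotic-like cells made up 0% of RANKL cells on day 0 and 29.5% on day 1 (means of 3 plates). S phase-like cells made up 0.295% and 23.8%, and enterocyte-like cells 45.7% and 8.77%. Clusters without a name held 48.6% on day 0, 5.31% on day 1, 53.3% on day 6 and 60.1% on day 9, so the named classes leave out many RANKL cells. Their part in the changes from day 0 was not tested. The labels do not say whether the plates of a day hold separate cultures, so a p-value here weighs a difference against plate-to-plate spread that may be technical. Counting noise alone was exceeded between same-day plates in all 30 pairs of the RANKL arm and all 7 of the other, with a chi-square per gene between 2.43 and 27.1. Markers of other tissues were at few UMIs in all RANKL cells together, the highest of each kind being 61 of Cd68 (immune cells), 35 of Pdgfra (fibroblasts) and 14 of Pecam1 (endothelium). In the other arm the marker counted was Cd68, with 7 UMIs, and 1 of 5 immune markers was present. The arm, the deposited table and the series of plates coincide, so a difference between arms cannot be told apart from a difference between tables or plates. Plate 2 of day 0 and plates 1 and 3 of day 4 in the RANKL arm, and both day 4 plates of the other arm, held fewer than 50 kept cells.

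Of the 10 genes, 9 were counted well enough to be tested in the RANKL arm, and 8 of these 9 differed among its 10 days. The background was high, since 58.6% of all genes tested did so. The exception was Cdx2 (edgeR adjusted p = 0.174), whose plates lay between 32.1 and 66.3 CPM on all days. Over the RANKL course the day means spanned 3.29-fold for Klf4, which was sparse, 3.06-fold for Hnf4g, 2.77-fold for Cdx1, 2.20-fold for Klf5, 2.06-fold for Gata4, 1.78-fold for Hnf4a, 1.76-fold for Gata6 and 1.67-fold for Tcf7l2. Against day 0, 1 of the 9 tested genes was higher and 2 lower on day 1 (background 23.8% of all genes), 1 was higher and 1 lower on day 2 (21.5%), and 2 were higher and 1 lower on day 3 (20.4%). On day 4, 4 were lower (11.4% of all genes were lower), and on day 5, 5 were lower (17.2% lower). On day 6, 1 was higher and 6 lower (38.3% either way), and on day 7 likewise 1 and 6 (33.0%). On day 8, 6 were lower (17.8% lower), and on day 9, 4 were lower (18.4% lower). The median log2 change of the 9 genes was -0.59 on day 6 and -0.24 on day 9, against 0.04 and 0.03 over all genes tested. The plot of all 9 genes by day shows a common high on day 3 for Hnf4a, Hnf4g, Klf5 and Tcf7l2, and a lower level from day 4 or 5 on.

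**Figure D1:**
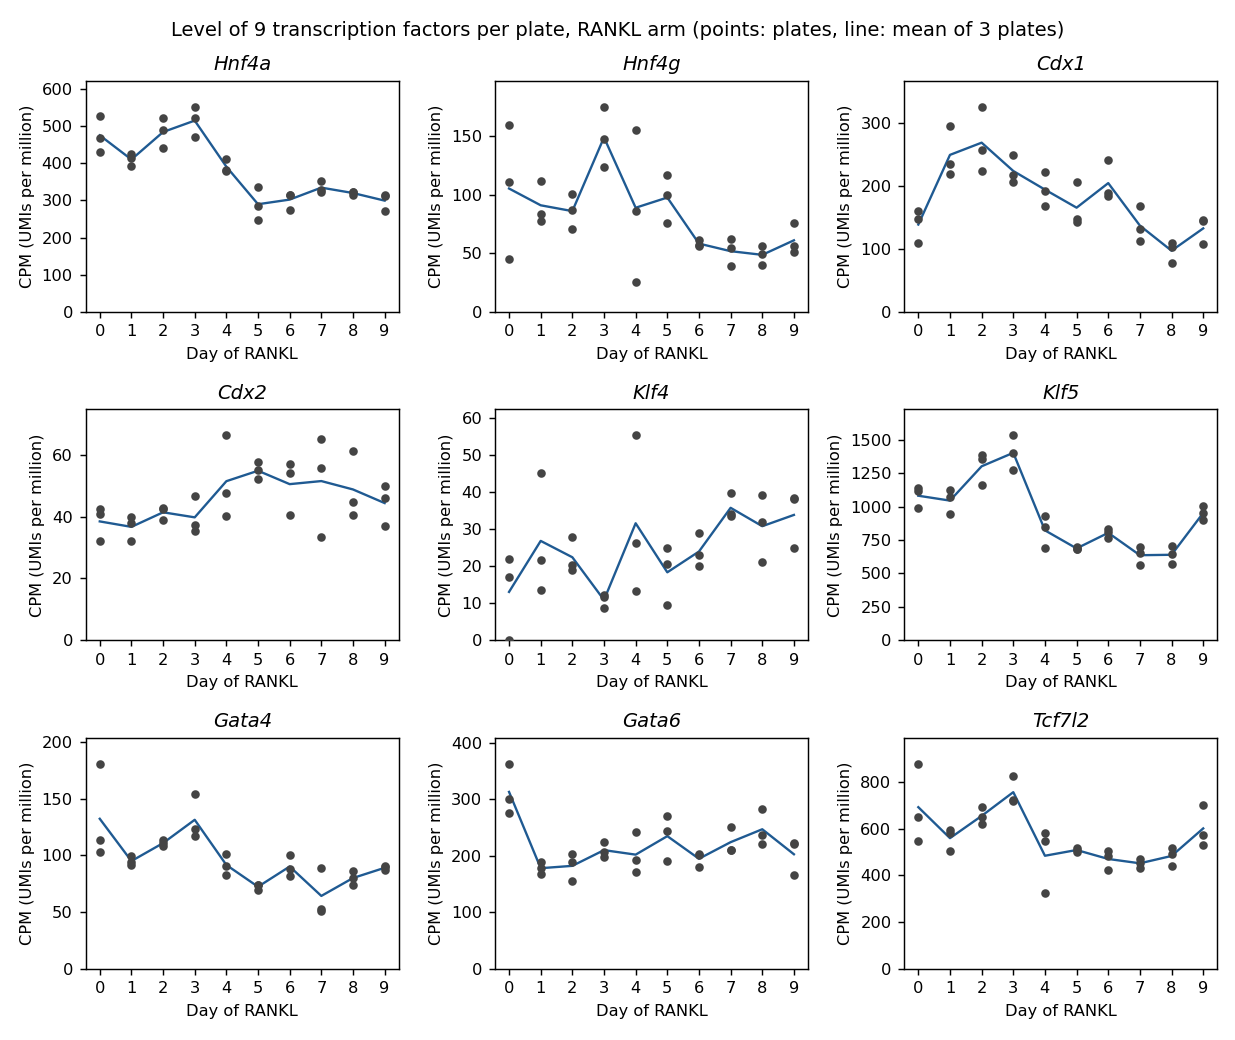
Level of 9 transcription factors in the RANKL arm, in CPM on the vertical axis and day of RANKL on the horizontal axis; each point is a plate and the line joins the means of 3 plates. Klf5 falls from plates at 1274 to 1534 CPM on day 3 to 687 to 932 on day 4, and Gata6 from 276 to 364 on day 0 to 167 to 189.6 on day 1.

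Hnf4a stood at 469, 429.9 and 527 CPM in the 3 plates of day 0 and at 521, 553 and 472 CPM on day 3. On day 6 its plates were at 316, 275 and 316 CPM, and on day 9 at 272, 314 and 312 CPM. Every plate of days 6 and 9 lay under every plate of days 0 and 3. Hnf4a fell 1.59-fold by day 6 (log2 change -0.67, SE 0.12, edgeR adjusted p = 2.77e-05) and stood 1.61-fold below day 0 on day 9 (edgeR adjusted p = 2.93e-05); both calls held with any 1 plate left out. Its day means, in order from the highest, were 515 ± 40.7 CPM on day 3, 484 ± 39.5 on day 2, 475 ± 49.0 on day 0, 410.4 ± 16.8 on day 1 and 391 ± 19.1 on day 4 (each over 3 plates, SD). Days 5 to 9 lay between 335 ± 15.7 and 289.9 ± 44.7 CPM. Among steps between consecutive days it passed the test only between days 3 and 4. In 5 of these steps none of the 9 genes passed (edgeR), with 1 or 2 of the 9 at an unadjusted p under 0.05. The steps were from day 1 to 2 (1.49% of all genes did), day 2 to 3 (4.51%), day 4 to 5 (0.430%), day 5 to 6 (4.33%) and day 7 to 8 (0.0200%). The gene lies at chr2:163506808-163572910 on the plus strand (GRCm38), and its 5′ part overlaps the antisense gene Hnf4aos; whether the authors' counting used the strand is not given in the sources used here.

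Hnf4g, the paralog of Hnf4a (chr3:3508030-3658052), was at 111, 44.9 and 159.9 CPM in the plates of day 0 and at 148, 124 and 175 CPM on day 3. It was at 56.5, 61.1 and 57.4 CPM on day 6 and at 56.3, 75.9 and 51.2 CPM on day 9. The later plates lay close together, while day 0 plate 2, which held 26 cells, lay below them and the other day 0 plates above. Hnf4g fell 2.09-fold by day 6 (log2 change -1.07, SE 0.28, edgeR adjusted p = 0.00276) and 1.99-fold by day 9 (edgeR adjusted p = 0.00652). Without day 0 plate 3 the adjusted p was 0.0959 on day 6 and 0.149 on day 9, and without day 9 plate 3 it was 0.0781 on day 9. The ratio of Hnf4g to Hnf4a UMIs, not divided by transcript length since each molecule gives a single 3′ count, had a log2 of -2.32 ± 0.76, -1.80 ± 0.36 and -2.36 ± 0.17 on days 0, 3 and 6 (SD, n = 3).

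Cdx1 rose early. Its plates were at 109, 160.4 and 147 CPM on day 0 and at 294, 235 and 218 CPM on day 1, with no overlap. The rise was 1.88-fold on day 1 (log2 change 0.91, SE 0.19, edgeR adjusted p = 0.00044) and held with any 1 plate left out, as did the 1.69-fold rise on day 3 (edgeR adjusted p = 0.00361). On day 6 its plates were at 184, 241 and 188 CPM (log2 change 0.62, SE 0.19, edgeR adjusted p = 0.0109), a call that ended without day 0 plate 1 (0.0698). Cdx1 then fell between days 6 and 7 (log2 change -0.57, edgeR adjusted p = 0.0477, where 3.29% of all genes fell), and on day 9 its log2 difference from day 0 was 0.01 with a range of 2 SE from -0.39 to 0.42. Its level relative to Cdx2, the factor whose loss turns gut epithelium gastric-like, had a log2 ratio of UMIs of 1.80 ± 0.43 on day 0, 2.75 ± 0.21 on day 1 and 0.99 ± 0.57 on day 8.

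Klf5, the gene with the most UMIs among the 10 (30645 in the RANKL table, chr14:99298691-99315036), was at 990.1, 1136 and 1117 CPM on day 0. It reached 1398, 1534 and 1274 CPM on day 3 and was at 932, 848 and 687 CPM on day 4. All day 3 plates lay above those of days 0 and 4. It rose by 0.38 on the log2 scale by day 3 (SE 0.12, edgeR adjusted p = 0.0235, but 0.0538 without day 0 plate 1). It then fell 1.71-fold in a day (log2 change -0.77, SE 0.13, edgeR adjusted p = 6.26e-05), a step that held with any 1 plate left out. Its lowest day means were 636 ± 68.9 CPM on day 7 and 639.6 ± 70.3 on day 8 (SD, n = 3). From day 8 to day 9 it rose again, from plates at 642, 708 and 568 CPM to 902, 1005 and 950.3 CPM (log2 change 0.57, SE 0.12, edgeR adjusted p = 0.00485, where 2.01% of all genes rose). The day 9 plates all lay above those of days 5 to 8. On day 6 it was 1.34-fold below day 0 (edgeR adjusted p = 0.00645, and 0.0504 without day 6 plate 2).

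Klf4, at chr4:55527143-55532466, was sparse: 22.1, 0 and 17.1 CPM in the plates of day 0 and 39.8, 34.1 and 33.5 CPM on day 7, when it was highest. In edgeR it passed against day 0 on day 7 alone (log2 change 1.00, SE 0.40, edgeR adjusted p = 0.0499). With every cell given equal weight (limma), it passed on day 1 (0.0446), day 6 (0.00894) and day 9 (0.00469). From day 3 to day 4 it passed with DESeq2 (0.0302) and with no filter on low counts (0.0234), but not in the edgeR test (0.0741). On day 9 its difference of 0.91 did not pass (edgeR adjusted p = 0.0839), but did so without day 9 plate 2 (0.0338) and with no filter (0.049).

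Gata6 fell at the first step and stayed below day 0. Its plates were at 301, 276 and 364 CPM on day 0, and at 189.6, 178 and 167 CPM on day 1. None of the later plates through day 4 reached the day 0 range. The fall was 1.80-fold by day 1 (log2 change -0.84, SE 0.15, edgeR adjusted p = 5.2e-05), 1.64-fold by day 6 (edgeR adjusted p = 0.000257) and 1.58-fold by day 9 (edgeR adjusted p = 0.000813), and each of these held with any 1 plate left out. The fall of 0.61 on day 3 (edgeR adjusted p = 0.00264) ended without day 0 plate 3 (0.0582). Gata4, at chr14:63198922-63271692, went from 113, 103 and 181 CPM on day 0 to 101, 88 and 81.8 CPM on day 6 and 90.3, 87.4 and 89.3 CPM on day 9. Its falls of 0.63 on day 6 (SE 0.18, edgeR adjusted p = 0.0049) and 0.65 on day 9 (edgeR adjusted p = 0.00494) rested on day 0 plate 3, without which the adjusted p was 0.276 and 0.252. Its fall on day 1 (log2 change -0.56, edgeR adjusted p = 0.0169) likewise ended without that plate (0.505), and without day 1 plate 2 (0.0744) or plate 3 (0.0802). The log2 ratio of Gata6 to Gata4 UMIs was 1.27 ± 0.23, 0.69 ± 0.23 and 1.84 ± 0.53 on days 0, 3 and 7 (SD, n = 3).

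Tcf7l2, at chr19:55741820-55933654, was at 878, 545 and 651 CPM on day 0, at 722, 719 and 826 CPM on day 3 and at 482, 503 and 425 CPM on day 6. Day 0 plate 1 lay apart from the other plates of its day, and the day 6 plates lay below all plates of days 0 and 3. The fall by day 6 was 1.51-fold (log2 change -0.59, SE 0.15, edgeR adjusted p = 0.00232), and the call ended without day 0 plate 1 (0.193). On day 9 its plates, at 572, 702 and 528 CPM, overlapped those of day 0. Elf3 had 9 UMIs in the whole RANKL arm, at most 3.08 CPM in a plate, and was not tested. So few UMIs give no firm measure of its expression. Elf3 was absent from the 9257 genes counted in the RANKL+CSRM617 arm, which held the other 9. With every cell given equal weight (log2 of mean CPM over cells plus 1, limma), the day 6 falls of Hnf4g (0.145), Klf5 (0.252), Gata4 (0.135) and Tcf7l2 (0.164) and the day 9 falls of Hnf4g (0.3) and Gata4 (0.2) did not pass, while those of Hnf4a and Gata6 did.

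Between day 3 and day 4, Hnf4a, Klf5 and Tcf7l2 fell together, 3 of 9 tested, where 5.02% of all genes tested fell. Hnf4a fell from plates at 521, 553 and 472 CPM to 413, 379 and 381 (log2 change -0.40, SE 0.12, edgeR adjusted p = 0.0317). Tcf7l2 went from 722, 719 and 826 CPM to 322, 548 and 580.4 (log2 change -0.61, SE 0.16, edgeR adjusted p = 0.00951). Neither gene's plates overlapped. The Hnf4a call ended without day 3 plate 1 (0.0666) or 2 (0.0979), without day 4 plate 2 (0.0876) or 3 (0.11), with no filter on low counts (0.0584) and with equal weight per cell (limma, 0.0798). The Tcf7l2 call ended without day 4 plate 1 (0.0843), and without the plates of fewer than 50 cells only Klf5 of the 3 remained. The medium was refreshed every 3 days per the labels, and M cell-like cells made up 44.5% of cells on day 3 but 9.44% on day 4, enterocyte-like cells 23.7% and 6.90%. Their part in these falls was not tested.

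To set the levels beside cell classes, cells were clustered with the 10 genes left out, and a cluster was named only from markers. The names rest on these rebuilt clusters, and the levels by class are a description. The M cell-like class of the RANKL arm joined a cluster of 579 cells and one of 339 cells. The larger was led by Id3, Id1 and Spib, and 3 M cell markers (Spib, Serpinb1a and Anxa5) were among its 50 leading genes. The smaller had 5, with Ccl9 and Ctsh besides. Gp2 and Sox8, among other listed markers, were in neither. In the RANKL arm Hnf4g was at 239 ± 54.4 CPM in enterocyte-like cells (SD, n = 6 plates with at least 20 such cells). It was at 108 ± 27.4 CPM in M cell-like cells (n = 9) and at means of 42.0 to 50.4 CPM in stem-like, S phase-like and mitotic-like cells (n = 12, 18 and 23). All 6 enterocyte-like plates, the lowest at 182 CPM, lay above the highest plate of any of the other 4 classes, at 153 CPM. Among these classes Tcf7l2 followed the same order at the top, with 959 ± 187 CPM in enterocyte-like and 679 ± 61 in M cell-like cells. It was at 401 to 504 CPM in the stem-like, S phase-like and mitotic-like cells. Pooled over all plates, it was at 763 CPM in Paneth- and goblet-like cells and 676 in M cell-like cells. Gata4 was at 166 ± 32.7 CPM in enterocyte-like and 114 ± 20.4 in M cell-like cells, against 70.9 to 90.7 CPM in those 3 classes. Plates with enough enterocyte-like cells came from days 0, 1 and 3 alone, and those with enough stem-like cells from day 4 on. For all 3 genes, the class means therefore also differ in the days they cover.

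In the RANKL arm, Klf5 and Hnf4a instead had their highest class means in M cell-like cells. Klf5 was at 1398 ± 236 CPM there, at 1117 ± 153 in enterocyte-like cells and at 651 ± 157 in stem-like cells. Hnf4a was at 540 ± 57.5 CPM in M cell-like, 457 ± 51.5 in enterocyte-like and 333 ± 45.4 in stem-like cells, and at 97.6 CPM in the 1 plate with enough enteroendocrine-like cells. Cdx1 was at 265 ± 47.9 CPM in M cell-like and at 100.4 ± 24.5 in enterocyte-like cells, and these plates did not overlap. M cell-like cells were in sufficient number on days 1 to 3 alone, so a mean over all days sets them against later days of other classes. On days 1, 2 and 3 by themselves, Cdx1 was at 264, 276 and 256 CPM in M cell-like cells and at 294, 324 and 325 CPM in mitotic-like cells. Klf5 was at 1193, 1376 and 1625 CPM against 1034, 1235 and 1292 CPM, and Hnf4a at 523, 525 and 570 CPM against 381, 461 and 535 CPM, with plates of the 2 classes overlapping on some days. Cdx1 thus stood lower in M cell-like than in mitotic-like cells of the same days. In the RANKL+CSRM617 arm the M cell class also carried enterocyte markers. Pooled over plates there, Klf5 was at 1383 CPM in enterocyte-like and 1176 in M cell- and enterocyte-like cells, and Tcf7l2 at 421 and 704, both unlike the RANKL order. Hnf4g (249 and 185), Gata4 (175 and 168), Hnf4a (522 and 549) and Cdx1 (153 and 181) kept it.

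**Figure D2:**
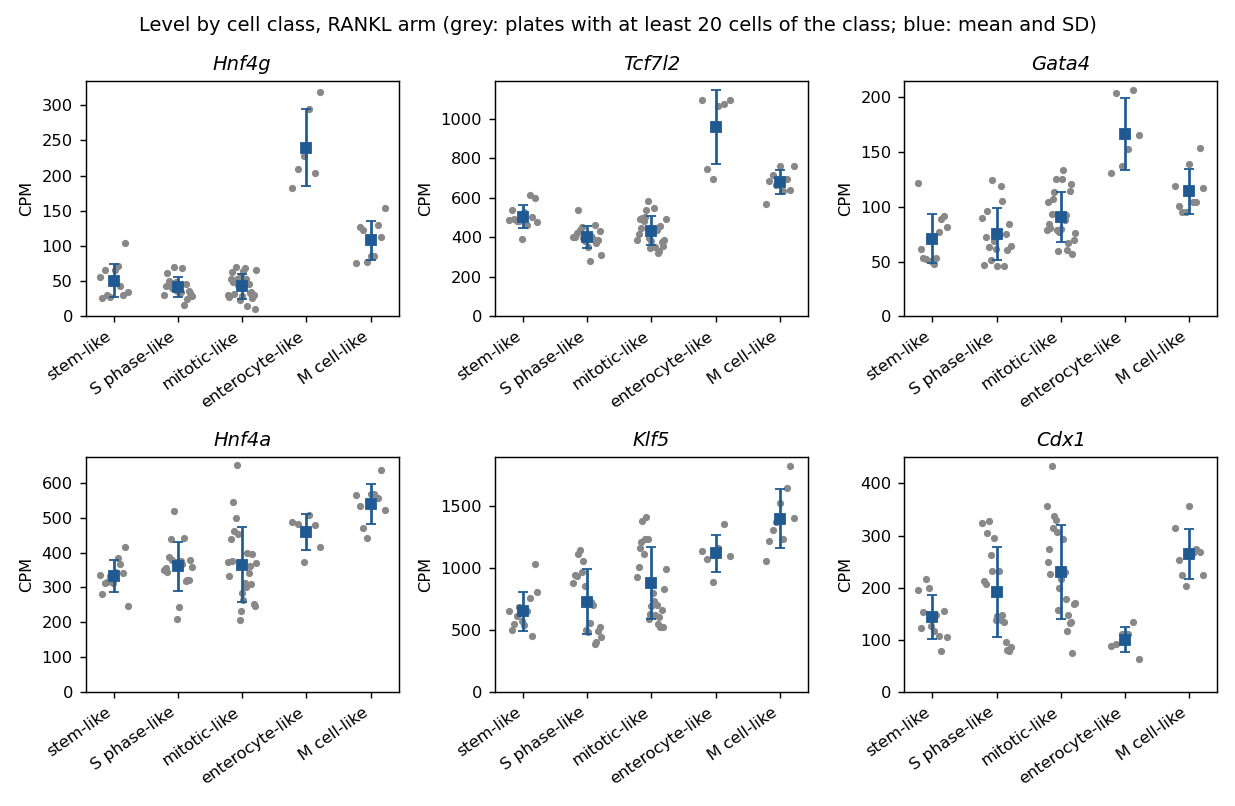
Level of 6 genes by cell class in the RANKL arm, in CPM; grey points are plates with at least 20 cells of the class, blue squares and bars their mean and SD. Over the days pooled, Hnf4g, Tcf7l2 and Gata4 have their highest means in enterocyte-like cells and Hnf4a and Klf5 in M cell-like cells; that of Cdx1 is also there, but on days 1 to 3 alone mitotic-like cells are higher (294, 324 and 325 against 264, 276 and 256 CPM).

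Klf4 had its highest level per cell in secretory cells. Paneth- and goblet-like cells held 273 CPM over all plates and tuft-like cells 104, against 5.59 CPM in M cell-like and 8.16 in enterocyte-like cells. With each cell thinned to 1000 UMIs, 22.4% of Paneth- and goblet-like cells had a Klf4 UMI, against 0.436% of M cell-like cells (unthinned 45.2% and 2.72%, at median depths of 2975 and 5276 UMIs). The class had the higher share of Klf4-positive cells in 20 of the 23 RANKL plates with at least 5 such cells, and in 8 of 8 plates of the other arm, where 22.6% of its thinned cells had a Klf4 UMI. In those plates the class held 36.4% (RANKL arm) and 50.9% (RANKL+CSRM617 arm) of all Klf4 UMIs. Over all RANKL plates the Paneth- and goblet-like, tuft-like and enteroendocrine-like cells together held 373 of 779 Klf4 UMIs, and unnamed clusters 162.

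Levels also differed between days in cells of the same class name, although different clusters made up a class on different days. Of the mitotic-like cells, one cluster held 209 of 217 on day 1, 142 of 145 on day 2 and 102 of 110 on day 3, and the other held 87 of 89 on day 5 and 118 of 121 on day 6. In mitotic-like cells, Klf5 was at 1034 ± 119, 1235 ± 136 and 1292 ± 104 CPM on days 1 to 3. It was at 637 ± 55.8, 716 ± 89.0, 621 ± 77.9 and 571 ± 78.8 CPM on days 5 to 8 (SD, n = 3), and at 914 CPM on day 9 (2 plates). Each plate of days 1 to 3 lay above each plate of days 5 to 8, as the plot within mitotic-like cells shows. Cdx1 in these cells was at 294, 324 and 325 CPM on days 1 to 3 and at 148 and 113 CPM on days 7 and 8, and Hnf4a at 535 CPM on day 3 and 241 CPM on day 5. Klf5 in stem-like cells was at 556 to 621 CPM on days 5, 7 and 8 and at 918 CPM on day 9. Gata6 in enterocyte-like cells was at 337 ± 8.13 CPM on day 0 (2 plates) and at 201 ± 14.2 on day 3 (3 plates). Its cells on day 0 were all of a cluster led by Fabp1, and on day 3 189 of 192 were of another, led by Reg3b, Apoa4 and Apoa1. Hnf4g stayed between 30.7 and 62.4 CPM in the mean of mitotic-like cells on every day with enough cells. These values by class and day were not tested, and a change of day cannot be told apart from a change of cluster in mitotic-like and enterocyte-like cells.

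**Figure D3:**
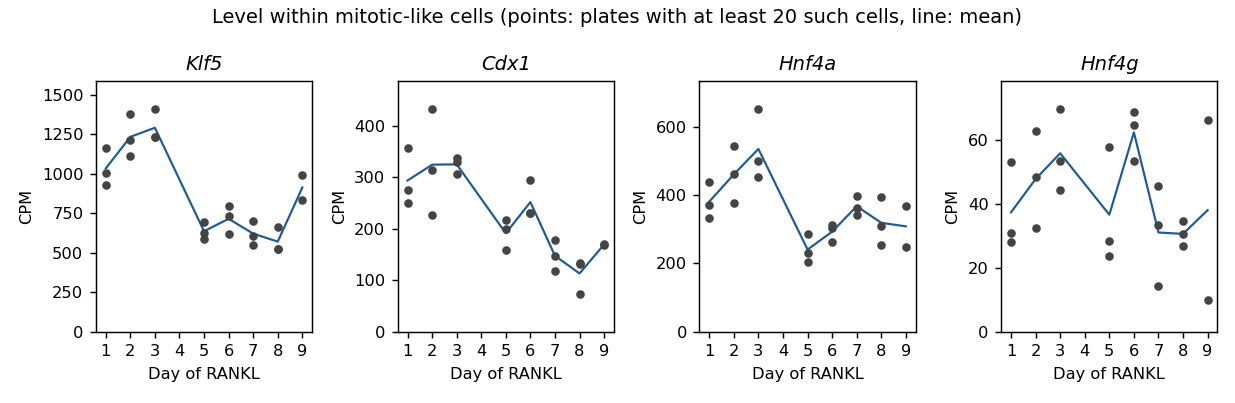
Level of 4 genes within mitotic-like cells of the RANKL arm, in CPM on the vertical axis and day of RANKL on the horizontal axis; points are plates with at least 20 such cells and the line joins their means (no plate of day 4 had enough). Days 1 to 3 and days 5 to 9 are mostly different clusters of that name. Klf5 is higher in every plate of days 1 to 3 than in any of days 5 to 8.

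Genes known to lie downstream of these factors were followed through lists chosen by name. Of 13 tested enterocyte genes that HNF4 factors drive, none was higher and 13 were lower on day 6 of RANKL (19.4% of all genes tested were lower; median log2 change -2.27, against 0.04 over all genes), and the same count was lower on day 9 (18.4% of all genes; median -2.49). Fabp2, which encodes a fatty acid binding protein, fell by 5.63 on the log2 scale (SE 0.34, edgeR adjusted p = 5.4e-15). Alpi, the intestinal alkaline phosphatase, fell by 4.90 (SE 0.40, edgeR adjusted p = 4.69e-12), and Creb3l3, a transcription factor of lipid metabolism, by 4.15 (SE 0.37, edgeR adjusted p = 3.73e-11). On day 3 the list was split, with Apoa1 higher (1.24, SE 0.37, edgeR adjusted p = 0.0143) and Fabp2 (-2.23, SE 0.25, edgeR adjusted p = 8.04e-09) and Mttp (-1.34, SE 0.26, edgeR adjusted p = 0.000137) lower. The summed level of 13 enterocyte markers went from 6333 to 8917 CPM in the plates of day 0 to 908 to 1116 CPM on day 6, and that of 8 stem cell markers from 3198 to 3888 CPM to 9180.5 to 11664 CPM. Both moved with the falls of Hnf4a and Hnf4g, and their part in them was not tested. The marker lists share genes with the downstream lists: Fabp2, Alpi, Apoa1 and Mttp here, and Sis, Ascl2 and Lgr5 further on. Their changes are therefore not separate observations.

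Of 4 tested intestinal genes linked to CDX2, 3 were lower on day 6 (Sis, which encodes sucrase-isomaltase, by 2.43, with an SE of 0.36), where 19.4% of all genes were lower, and 4 on day 9, where 18.4% were, while Cdx2 itself did not pass the test on any day. Of 14 tested Wnt targets, 10 were higher and 1 lower on day 6 (18.9% and 19.4% of all genes; median log2 change 0.99). Among the higher were Tnfrsf19 (3.93, SE 0.34, edgeR adjusted p = 1.35e-11), Ascl2 (1.65, SE 0.25, edgeR adjusted p = 1.73e-06) and Sox9 (1.33, SE 0.14, edgeR adjusted p = 2.57e-09). The direction was opposite to that of Tcf7l2, which was lower that day. Of 32 other epithelial transcription factors tested, 10 were higher and 9 lower on day 6 (38.3% of all genes either way), with Nr1h4, the bile acid receptor, among the lower (-2.18, SE 0.32, edgeR adjusted p = 1.41e-06).

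In the RANKL+CSRM617 arm, 3 of 9 genes differed among the days (Hnf4g, Klf5 and Tcf7l2; 20.2% of all genes did so). On day 1, 0 of 9 passed against day 0 (edgeR; 2 had an unadjusted p under 0.05, and the background was 4.37%). On day 2, Hnf4g was higher and Klf4 lower (log2 change 0.93, SE 0.30, and -1.83, SE 0.55; edgeR adjusted p = 0.0494 and 0.0364; background 9.77%). On days 4 and 5 none passed (edgeR; 2 and 0 with an unadjusted p under 0.05; backgrounds 4.57% and 7.69%). On day 3, 3 of 9 were higher and none lower (10.0% of all genes were higher). Hnf4g went from 51.4 and 86 CPM to 224 and 206 CPM (log2 change 1.69, SE 0.30, edgeR adjusted p = 0.000291). Tcf7l2 went from 285 and 349 to 568 and 677 CPM (0.98, SE 0.22, edgeR adjusted p = 0.00309), and Gata4 from 126 and 67.7 to 265 and 170.0 CPM (1.10, SE 0.28, edgeR adjusted p = 0.00798). No day 3 plate of these 3 genes overlapped day 0. The Hnf4g rise held with any 1 plate left out, the Tcf7l2 rise ended without day 0 plate 1 (0.07) or day 3 plate 2 (0.0642), and the Gata4 rise without day 0 plate 2 (0.0939) or day 3 plate 1 (0.144). With every cell given equal weight in limma none of the 3 passed, with an adjusted p of 0.0765 for Hnf4g, 0.0899 for Tcf7l2 and 0.117 for Gata4. From day 3 to day 4 Hnf4g fell again (log2 change -1.88, SE 0.46, edgeR adjusted p = 0.0144, where 4.42% of all genes fell), to day 4 plates of 43 and 24 cells. On day 6, 1 of 9 passed and was higher (4.55% of all genes were): Hnf4g, at 142 and 167 CPM (1.22, SE 0.37, edgeR adjusted p = 0.0437). That call ended without day 0 plate 1 (0.336), day 6 plate 1 (0.159) or day 6 plate 2 (0.265), and with DESeq2 (0.0745).

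The arms already differed on day 0. There, over the 9230 genes in both tables, Tcf7l2 was at 299 and 368 CPM in the RANKL+CSRM617 plates and at 848, 557 and 617 CPM in the RANKL plates (log2 difference -1.05, SE 0.19, edgeR adjusted p = 0.000183). The difference held with any 1 plate left out. Klf4 was at 39.2 and 118 CPM against 21.3, 0 and 16.2 CPM (2.09, SE 0.51, edgeR adjusted p = 0.00538, but 0.336 without RANKL+CSRM617 day 0 plate 2). These were 2 of 9 genes, where 9.82% of all genes tested differed. The difference in the change from day 0 is therefore given beside the difference between arms. The day 0 cells also differed by class. Enterocyte-like cells were 45.7% of RANKL and 3.40% of RANKL+CSRM617 cells, and unnamed clusters 48.6% and 86.4%. Clusters were named within each arm, and an unnamed RANKL+CSRM617 cluster led by Fabp1 held 97 cells of day 0. The part of these shares in the differences of change was not tested.

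On day 6, 4 of 9 genes were higher in the RANKL+CSRM617 arm and none lower (9.55% of all genes were higher). Hnf4a was at 578 and 586 CPM against 303, 264 and 305 CPM, 2.00-fold higher (edgeR adjusted p = 2.62e-05). Klf5 was at 1682 and 1595 CPM against 798, 778 and 740.1 CPM, 2.12-fold higher (edgeR adjusted p = 9.74e-07). In both genes the arms were wide apart and the call held with any 1 plate left out. The RANKL+CSRM617 plates of day 6 held 53 and 55 kept cells, against 240 to 267 in the RANKL plates. Hnf4g, at 149 and 171 CPM against 54.1, 58.6 and 55.4, was 2.85-fold higher (edgeR adjusted p = 0.0152) and Gata4, at 184 and 162 CPM against 96.4, 84.4 and 78.9, 2.00-fold higher (edgeR adjusted p = 0.014). These calls ended without RANKL+CSRM617 day 6 plate 1 (0.137 for Hnf4g, 0.261 for Gata4) or plate 2 (0.21 and 0.117), and that of Hnf4g also with a minimum of 2000 UMIs per cell (0.0938). Tcf7l2, with plates at 631 and 469 against 462, 483 and 409 CPM, did not pass (log2 difference 0.29, range of 2 SE from -0.12 to 0.70), nor did Cdx1 (-0.10, from -0.80 to 0.59) or Gata6 (0.09, from -0.41 to 0.60). On day 1, Tcf7l2 alone passed and was lower (log2 difference -0.94, SE 0.19, edgeR adjusted p = 0.000474; 7.51% of all genes were lower). On day 2, 3 of 9 were higher (5.32% of all genes), Hnf4a by 0.55, Klf5 by 0.46 and Gata4 by 0.71. On day 3, 3 of 9 were higher (6.95% of all genes), among them Hnf4a at 719 and 680.1 CPM against 511, 537 and 463 (log2 difference 0.47, edgeR adjusted p = 0.0258). That difference did not pass without RANKL day 3 plate 3 (0.0961) or RANKL+CSRM617 day 3 plate 1 (0.24) or 2 (0.154). On day 4 none of 9 passed in edgeR (1 had an unadjusted p under 0.05, background 4.28%). On day 5, Hnf4a, Klf5 and Gata4 were higher by 1.02, 1.12 and 1.07 on the log2 scale (edgeR adjusted p = 9.71e-06, 6.2e-07 and 0.00339; 4.47% of all genes were higher).

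**Figure D4:**
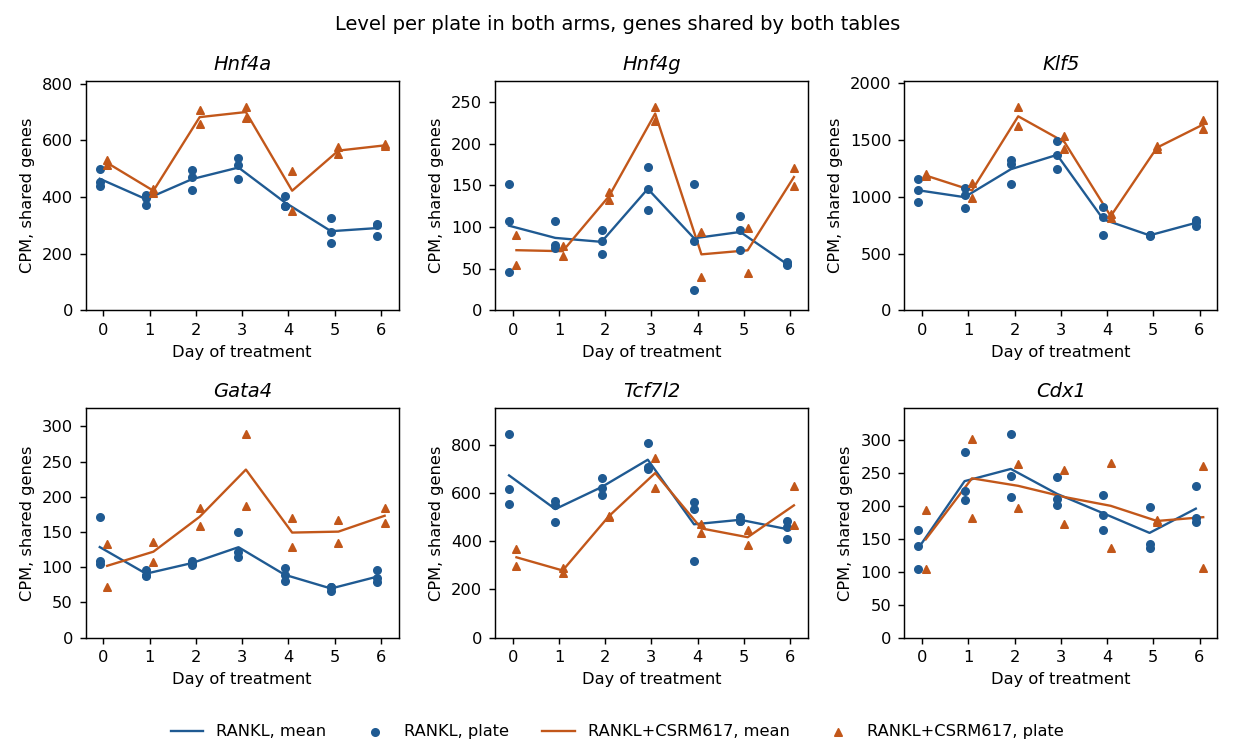
Level of 6 genes on days 0 to 6 in both arms, in CPM over the genes of both tables; points are plates and lines join day means, blue for RANKL and orange for RANKL+CSRM617. On day 6 both RANKL+CSRM617 plates lie above all RANKL plates for Hnf4a, Hnf4g, Klf5 and Gata4, while Tcf7l2 starts lower on day 0.

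The change from day 0 to day 6 differed between the arms for 5 of 9 genes, all in the direction of RANKL+CSRM617 (7.10% of all genes differed that way; median over the 9 genes 0.91, over all genes -0.06). The difference in log2 change was 2.27 for Hnf4g (SE 0.57, edgeR adjusted p = 0.00567) and 1.34 for Gata4 (SE 0.37, edgeR adjusted p = 0.0121). It was 1.33 for Tcf7l2 (SE 0.28, edgeR adjusted p = 0.00102), 0.91 for Klf5 (SE 0.21, edgeR adjusted p = 0.00275) and 0.84 for Hnf4a (SE 0.22, edgeR adjusted p = 0.00984). None of the 5 remained without RANKL+CSRM617 day 6 plate 1, where the adjusted p was 0.0533 for Hnf4g and Klf5, 0.0768 for Tcf7l2, 0.096 for Hnf4a and 0.159 for Gata4. The Hnf4a call also ended without RANKL day 0 plate 3 (0.0669), RANKL+CSRM617 day 0 plate 1 (0.0546) or 2 (0.0806) or day 6 plate 2 (0.0941). That of Hnf4g ended without RANKL+CSRM617 day 0 plate 1 (0.0648) or day 6 plate 2 (0.0801), and that of Gata4 without RANKL day 0 plate 3 (0.0972) or RANKL+CSRM617 day 0 plate 2 (0.116) or day 6 plate 2 (0.0664). Cdx1 (-0.36, edgeR adjusted p = 0.674), Cdx2 (1.26, 0.19), Gata6 (0.67, 0.19) and Klf4 (-1.14, 0.459) did not pass. By day 3 the change differed for Gata4 (1.23, SE 0.31, edgeR adjusted p = 0.0108) and Tcf7l2 (0.93, SE 0.26, edgeR adjusted p = 0.0273), 2 of 9 (3.82% of all genes differed that way). Both of these day 3 calls ended without RANKL+CSRM617 day 0 plate 2 (0.135 and 0.0573). The Gata4 call further ended without RANKL day 0 plate 3 (0.104) or RANKL+CSRM617 day 3 plate 1 (0.172). The Tcf7l2 call also ended without plate 1 of RANKL day 0 (0.113) or day 3 (0.0537) or of RANKL+CSRM617 day 0 (0.194) or plate 2 of its day 3 (0.226). By day 2 the change differed for Gata4 alone (1.05, SE 0.30, edgeR adjusted p = 0.0431; 2.08% of all genes), and by day 5 for Hnf4a, Klf5 and Gata4, 3 of 9 (1.11% of all genes). With every cell given equal weight in limma, the differences in change of Hnf4a (0.247) and Klf5 (0.116) on day 6 and of Gata4 (0.172) and Tcf7l2 (0.312) on day 3 did not pass. Nor did the Gata4 difference between arms on day 6 (0.0506) or that of Hnf4a on day 3 (0.603).

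**Figure D5:**
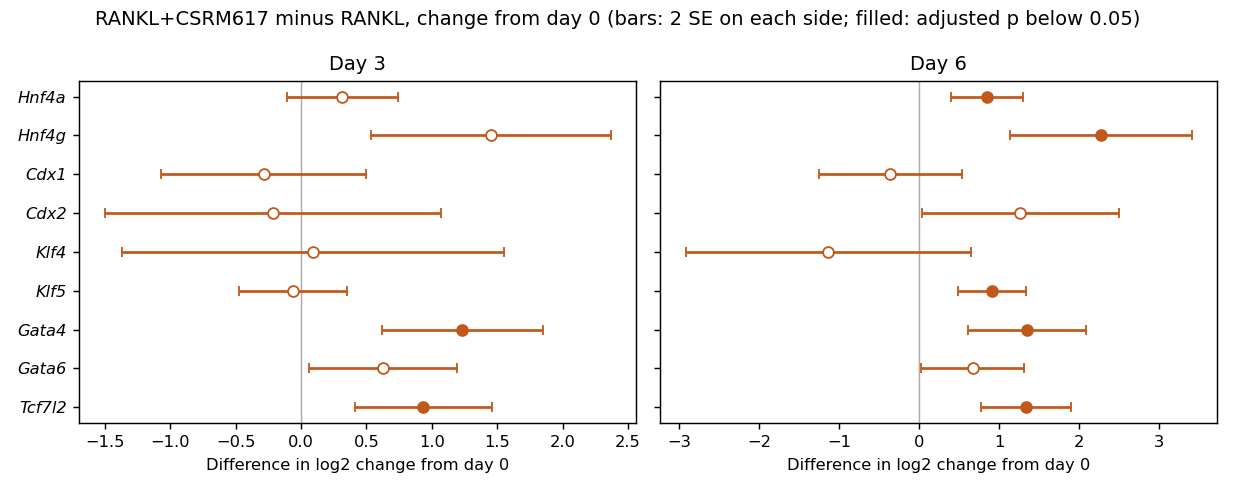
Difference between the arms in the log2 change from day 0, RANKL+CSRM617 minus RANKL, for 9 genes on day 3 and day 6; bars span 2 SE on each side and filled points passed the test. On day 6 the filled points are Hnf4a, Hnf4g, Klf5, Gata4 and Tcf7l2, and on day 3 Gata4 and Tcf7l2.

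The lists of downstream genes were compared in the same fit. In the change from day 0 to day 6, 10 of 13 enterocyte genes driven by HNF4 differed in the direction of RANKL+CSRM617 and none in the other (7.10% and 4.24% of all genes). The list was led by Alpi (5.04, SE 0.61, edgeR adjusted p = 2.24e-07) and Creb3l3 (4.87, SE 0.50, edgeR adjusted p = 6.81e-09). Of 14 tested Wnt targets, 6 differed in the other direction (4.24% of all genes) and none in this one. Among them were Sox9 (-1.91, SE 0.28, edgeR adjusted p = 8.52e-06), Myc (-1.37, SE 0.40, edgeR adjusted p = 0.019) and Lgr5, which had 0 UMIs in both RANKL+CSRM617 plates of day 6 and whose locus carries the knock-in. The change in Tcf7l2, which encodes a nuclear partner of β-catenin, differed in the opposite direction to them. Its level was lower in the RANKL+CSRM617 arm already on day 0, the start of the course, and did not pass between the arms on day 6 (edgeR adjusted p = 0.373). Between the arms on day 6 the 13 enterocyte markers summed to 3162 to 4346 CPM with CSRM617 and 871 to 1069 CPM without it. The 8 mitotic markers present summed to 306 to 456 against 1377 to 1864 CPM, and the 7 Paneth cell markers to 3442 to 5730 against 399 to 617 CPM. These marker levels moved with the differences of Hnf4a, Hnf4g, Klf5 and Gata4, and their part in them was not tested. Clusters without a name held 74.0% of the RANKL+CSRM617 cells of day 6, so the arms were not compared within a class.

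Ratios within gene families are given as descriptions. On day 3 the log2 ratio of Hnf4g to Hnf4a UMIs was -1.56 ± 0.02 in the RANKL+CSRM617 arm (SD, n = 2), against -2.88 ± 0.57 on its day 0. The log2 ratio there of Gata6 to Gata4 was -0.14 ± 0.68 on day 3 and 0.15 ± 0.44 on day 6, against 1.07 ± 0.45 on day 0. Across the 10 RANKL day means, the levels of Klf5 and Tcf7l2 (r = 0.90), Klf5 and Gata4 (r = 0.90) and Hnf4a and Klf5 (r = 0.82) went together, while Cdx2 and Klf5 went apart (r = -0.80). Among 5359 well-counted genes, the one most like Hnf4a over these 10 means was Capzb (r = 0.98). The gene most like Klf5 was Anxa13 (r = 0.95), and the gene most like Gata4 was Ctsz (r = 0.97). These values rest on 10 points that share plates and depth, and are descriptions.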

How the data were processed

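Per the labels' protocols, sorted single cells in 384-well plates were profiled by a modified CEL-Seq2 protocol. The submitters' processing notes name kallisto, bustools, Seurat 3.1.5 and the genome build GRCm38; the sources used here do not give whether counting used strand. The deposited count tables hold raw UMI counts per gene and cell, 1 table per arm. The deposited normalized tables hold natural log values, ln(1 + count / total x 10000) within 1e-06, and were not used. Here, cells with at least 1000 UMIs were summed per plate, and each table was fitted over all its genes with edgeR 4.0.16 (quasi-likelihood, TMM scaling, filterByExpr) in R 4.3.3. The genes tested were 10000 in the RANKL arm, 6499 in the RANKL+CSRM617 arm and 8766 of the 9230 shared genes in the fit of both arms. The threshold was an adjusted p of 0.05. The fits were tested on simulated data. Cells were clustered (scanpy 1.11.5, Leiden at resolution 1.0, 2000 variable genes, 30 components, 15 neighbours) without the 10 genes; doublets were not called. A cluster was named when at least 3 of its 50 leading genes, and 1 of its first 10, were markers of that type. Of each list, up to 4 called genes with the largest change per comparison could be named, and Nr1h4 and the Wnt and enterocyte genes fall under that rule. The 10 genes and the lists were chosen with earlier results of these data known. Alternatives were DESeq2 1.42.0 and its size factors, no filter, other minimum UMIs, limma 3.58.1 with equal weight per cell, a replicate block, and leaving out plates.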

Additional observations from a re-analysis of the deposited data

Results flagged for a closer look

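The change from day 0 differed between the arms, by the test of the difference itself, in 11 cases, all higher with RANKL+CSRM617. Gata4, the jejunal GATA factor, differed on 4 days: by 1.05 on the log2 scale on day 2 (SE 0.30, edgeR adjusted p = 0.0431, where 2.08% of all genes tested differed that way), 1.23 on day 3 (SE 0.31, 0.0108), 1.42 on day 5 (SE 0.34, 0.0162, background 1.11%) and 1.34 on day 6 (SE 0.37, 0.0121). Hnf4a differed by 0.86 on day 5 (SE 0.22, edgeR adjusted p = 0.0232) and 0.84 on day 6 (SE 0.22, 0.00984), and Klf5 by 0.94 on day 5 (SE 0.21, 0.00857) and 0.91 on day 6 (SE 0.21, 0.00275). Tcf7l2 differed by 0.93 on day 3 (SE 0.26, edgeR adjusted p = 0.0273) and 1.33 on day 6 (SE 0.28, 0.00102), and it was the gene that began lower in the RANKL+CSRM617 arm. Hnf4g differed by 2.27 on day 6 (SE 0.57, edgeR adjusted p = 0.00567). Alternatives were run for days 3 and 6. Groups of 3 and 2 plates are too small for a test of single outlying plates.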

How the results depend on the processing

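Of 214 recomputed counts of called genes, class levels and ratios, 178 kept their size and 36 did not. In all recomputed results, 0 were marked as reversed, a mark that class levels and ratios could not receive. Alternatives were run for RANKL days 1, 3, 6 and 9 against day 0, RANKL day 4 against day 3, and RANKL+CSRM617 days 1, 3 and 6. They were also run between arms on days 0, 3 and 6 and for the change to days 3 and 6. Calls of other comparisons were not rerun, among them Klf4 on RANKL day 7, the Klf5 rise from day 8 to day 9 and the arm differences on day 5. Of 40 called results for single genes in the comparisons rerun, 11 held under every alternative run. They are Cdx1 on days 1 and 3, Gata6 on days 1, 6 and 9, Hnf4a on days 6 and 9, the Klf5 fall from day 3 to day 4, the Tcf7l2 difference between arms on day 0, and the Hnf4a and Klf5 differences between arms on day 6. With each cell given equal weight (limma), the genes called numbered 4 in place of 7 on RANKL day 6 (3 of the 7 and Klf4), 0 in place of 3 on RANKL+CSRM617 day 3, 1 in place of 2 between arms on day 0 and 0 in place of 3 on day 3. They numbered 0 in place of 2 and 3 in place of 5 in the change to days 3 and 6. That weighting shifted the median of all genes by 0.25 (log2) on RANKL day 6, -0.51 between arms on day 6 and -0.46 in the change to day 6. The share of calls that were higher went from 49.5% to 66.9%, from 54.2% to 18.8% and from 62.6% to 27.7%. The single call on RANKL+CSRM617 day 6 went to 0 with no filter, with a minimum of 2000 UMIs, with equal weight per cell and with the replicate block. With DESeq2 that call also ended (0.0745) while Tcf7l2 passed (0.0447). In the RANKL arm the plate numbers were not seen to pair plates (correlations of deviations between -0.160 and 0.128). In the other arm these correlations lay between -0.235 and 0.218, and 2 plates a day are too few to tell. Its cell names also carry an L tag, which does not follow the plate number and was not fitted as a block. The replicate block changed no other such count by over 1.5 times. Without the plates of under 50 cells, a choice made after seeing the data, the genes called numbered 5 in place of 3 on RANKL day 1, and 1 in place of 3 from day 3 to day 4. They numbered 2 in place of 1 on RANKL+CSRM617 day 6 and 4 in place of 2 between arms on day 0. With no filter the Klf5 rise on RANKL day 3 had an adjusted p of 0.056. With 1 plate left out in turn, the counts ranged from 2 to 4 on RANKL day 1, 2 to 3 on day 3, 5 to 7 on day 6, 2 to 5 on day 9 and 2 to 3 from day 3 to day 4. They ranged from 0 to 1 on RANKL+CSRM617 day 1, stood at 2 on day 3 and from 0 to 1 on day 6. Between arms they ranged from 1 to 2 on day 0, 1 to 3 on day 3 and 2 to 4 on day 6. For the difference in change they ranged from 0 to 3 on day 3 and 0 to 5 on day 6. Where an arm is left with 1 plate, that plate is assumed to vary like the other groups. Of the genes tested, Klf4 and Cdx2 rest on the fewest UMIs in the RANKL table, 779 and 1442. The RANKL+CSRM617 arm held fewer, with 122 of Cdx2, 207 of Klf4 and 552 of Hnf4g, and its day 2 plates held 9 and 16 of Klf4. Calls of these genes in that arm rest on few UMIs.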

Other observations

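Slc51a, a bile acid exporter subunit of the ileum and the 1 tested gene of 4 listed as restrained by GATA4, fell by 2.97 on the log2 scale by RANKL day 6 (SE 0.64), and its change to day 6 differed between arms by 5.44 (SE 1.03). Onecut2, the target of CSRM617, rose by day 3 in both arms, by 1.66 with RANKL (SE 0.15, edgeR adjusted p = 1.28e-10) and by 1.87 with RANKL+CSRM617 (SE 0.22).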
